A study of Mus musculus with 12 samples.

Results

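The Wnt and beta-catenin pathway was examined through 45 named genes in RNA sequencing of the cortex of mice that carry 1 or 2 working copies of Chd8, at 2 ages. The genes are defined by name and role, not by a measured threshold, although they were proposed with earlier results of these data known, and all 45 were found by symbol among the 46603 genes counted. They comprise 9 Wnt ligands, 12 receptors (10 Frizzled proteins and the co-receptors Lrp5 and Lrp6), beta-catenin with 8 of its cytoplasmic regulators (Axin1, Axin2, Apc, Gsk3b, Dvl1, Dvl2, Dvl3 and Nkd1), the 4 TCF/LEF transcription factors, 4 secreted antagonists, 5 genes of the R-spondin and LGR module, and Porcn and Wls, which are needed for ligand release. Each age and genotype was represented by 3 libraries, 12 in all. Cortices were taken at embryonic day 12.5 (E12.5), when both hemispheres were used, and at postnatal day 5 (P5), when 1 hemisphere was used. Chd8+/- mice carried 1 null allele, made by crossing mice with a loxP-flanked exon 3 to a line in which the beta-actin promoter drives Cre, so that the deletion was present in every tissue. Chd8+/+ mice served as controls, and all were on a C57Bl/6J background. CHD8 is a chromatin remodelling protein, and the question put to these genes was whether its reduction altered the pathway in the cortex, since CHD8 has been proposed as a regulator of beta-catenin target genes.

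Wnt ligands are lipid-modified secreted proteins that bind Frizzled receptors and the co-receptors LRP5 and LRP6. Without a ligand, a complex of Axin, APC and GSK3 marks beta-catenin for destruction. When a ligand binds, Dishevelled proteins recruit Axin to the membrane, beta-catenin accumulates, enters the nucleus and activates transcription together with TCF/LEF proteins. In the embryonic forebrain the pathway patterns the dorsal midline and acts on the division of cortical progenitors, and the cortical hem, a strip of tissue at the dorsomedial edge of the cortex, is a source of several ligands.

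Levels are given as CPM, the count of a gene relative to the library's total, after scaling by the trimmed mean of M-values (TMM), and levels of different genes are compared only after division by gene length, as CPM per kb. Changes are log2 fold changes with their standard errors (SE), tested with edgeR's quasi-likelihood test and adjusted by the Benjamini-Hochberg method over all genes tested, with a call at an adjusted p under 0.05. Library totals ran from 38774591 to 54695236 counted fragments. The labels do not say whether the libraries of a group came from separate animals, so the p-values measure the spread between these libraries. The libraries of each age were deposited in a table of their own, so age and table cannot be told apart. In this bulk tissue, fewer cells of a type and less RNA per cell cannot be told apart either.

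Chd8 itself matched its labels in all 12 libraries. At E12.5 it was at 234, 229 and 235 CPM in Chd8+/+ and at 162, 167 and 161 CPM in Chd8+/- (log2 fold change -0.51, SE 0.039, adjusted p = 0.00562). At P5 it was at 151, 151 and 145 CPM against 95.7, 98.6 and 95.01 CPM (log2 fold change -0.61, SE 0.034, adjusted p = 7.21e-05). It was the only gene called at either age with this test.

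Neocortical markers were present in every library, with Emx1 at 35.2 to 53.8 CPM at E12.5 and 22.3 to 27.1 CPM at P5. Every E12.5 library also held markers of the ganglionic eminence, with Dlx2 at 109.9 to 136 CPM and Nkx2-1 at 71.5 to 96.5 CPM. The second Chd8+/- library at E12.5 stood apart. Of the 6 libraries of that age it was the highest for 20 of the 45 pathway genes, and 4 of them lay over 1 log2 unit from the median of the 6, against 0 in each of the other 5. It had the lowest level of the neocortical marker Emx1 (35.2 CPM against 46.9 to 51.9 CPM in Chd8+/+) and the highest summed level of 8 meningeal markers (1070.1 against 615 to 786 CPM). Of 6 markers of the developing thalamus it was the highest for 5, with Gbx2 at 8.97 CPM against 3.26 to 3.61 CPM in Chd8+/+, and the lowest for Lhx2, which cortical progenitors also express, and the sum of the 6 was the lowest of that age (601 CPM against 618 to 673 CPM in the other libraries). The first Chd8+/+ library at P5 stood apart for Tcf7l2 alone by the same measure. Fold changes at a single age that rest most on either library are given with and without it, and other results only where stated. By counts of Xist and of the Y-linked Ddx3y, sex was mixed within each group. The third Chd8+/+ and first Chd8+/- libraries at E12.5, and the first of each genotype at P5, had 34849 to 96118 Xist counts. Their Ddx3y counts were 0 to 10. The other libraries had 8 to 114 Xist and 1878 to 3936 Ddx3y counts.

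TCF/LEF proteins recognise the core CTTTGA, and the start regions of the beta-catenin gene, of the feedback target Axin2 and of Lef1 are printed as the transducer of the pathway and as examples of its target genes. Each runs from 250 bases before to 50 bases after a transcription start, 5′ to 3′ on the gene's strand, from RefSeq on GRCm38.p6, in lower case with any CTTTGA or its reverse complement TCAAAG in capitals. Ctnnb1 has 2 starts in the table, of which the first is shown, and Lef1 has 4, of which the first and the last are shown. The window of the last, inside the gene, holds 2 matches, and the other windows shown hold none.
Axin2 at chr11:108920099-108920398, plus strand: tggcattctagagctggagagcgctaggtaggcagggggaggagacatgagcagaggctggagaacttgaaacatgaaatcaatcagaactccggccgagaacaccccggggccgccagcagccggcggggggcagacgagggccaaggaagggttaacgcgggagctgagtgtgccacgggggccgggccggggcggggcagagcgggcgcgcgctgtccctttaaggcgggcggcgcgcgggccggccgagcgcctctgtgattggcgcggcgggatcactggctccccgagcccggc
Ctnnb1 at chr9:120933150-120933449, plus strand: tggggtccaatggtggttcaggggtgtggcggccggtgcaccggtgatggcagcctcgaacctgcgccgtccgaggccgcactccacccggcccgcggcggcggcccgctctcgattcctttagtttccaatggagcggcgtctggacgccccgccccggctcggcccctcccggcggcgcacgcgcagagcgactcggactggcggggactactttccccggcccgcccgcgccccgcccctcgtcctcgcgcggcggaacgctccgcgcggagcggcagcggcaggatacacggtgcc
Lef1, first start, at chr3:131110047-131110346, plus strand: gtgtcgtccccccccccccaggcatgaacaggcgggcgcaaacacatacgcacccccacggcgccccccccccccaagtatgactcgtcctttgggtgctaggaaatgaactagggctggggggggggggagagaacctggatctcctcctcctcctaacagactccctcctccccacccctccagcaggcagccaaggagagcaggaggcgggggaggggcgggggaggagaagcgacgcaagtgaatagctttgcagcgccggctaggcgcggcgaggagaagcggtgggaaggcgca
Lef1, internal start, at chr3:131156044-131156343, plus strand: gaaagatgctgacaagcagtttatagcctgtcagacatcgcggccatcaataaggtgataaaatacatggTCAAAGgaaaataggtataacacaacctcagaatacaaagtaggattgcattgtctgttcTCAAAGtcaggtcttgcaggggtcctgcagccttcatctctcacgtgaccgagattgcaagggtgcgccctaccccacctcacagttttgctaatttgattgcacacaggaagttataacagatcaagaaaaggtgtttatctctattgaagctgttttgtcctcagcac
Of the 45 genes, 29 had 38 such windows and 16 had none in the table used. The core was found on either strand in 4 of the 38 windows (10.5%), against 16% of 32851 windows of all genes. A match describes letters only and is not a measured binding site, and these RNA data do not separate transcripts by start.

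From E12.5 to P5 the pathway was mostly lower. In Chd8+/+ cortex 34 of the 45 genes fell and 8 rose, while 41.7% of all 19676 genes tested fell and 41.4% rose. The median log2 change of the 45 genes was -1.05 against -0.018 for all genes. At a change of at least 2-fold, 22 genes fell and 6 rose, against 20.1% and 26.4% of all genes. In Chd8+/- cortex 37 genes fell and 7 rose (all genes, 41.6% and 41.3%), with a median of -1.15 against -0.0046. The genes that rose in Chd8+/+ were Wnt4, Wnt3, Dkk3, Lgr5, Apc, Porcn, Dvl1 and Rnf43, and those not called were Fzd9, Lgr4 and Tcf7l2. An offset for each library's trend of counts with gene length moved the median of all genes by -0.22 in Chd8+/+ and by -0.20 in Chd8+/-, and changed the sign of none of the 45 genes. Markers of radial glia, the cortical progenitors that use this pathway, were also lower at the later age for 5 of 7 genes and higher for 2, with a summed level of 2592 to 2794 CPM at E12.5 and 1068 to 1238 CPM at P5. Their part in the fall was not tested.

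**Figure D1:**
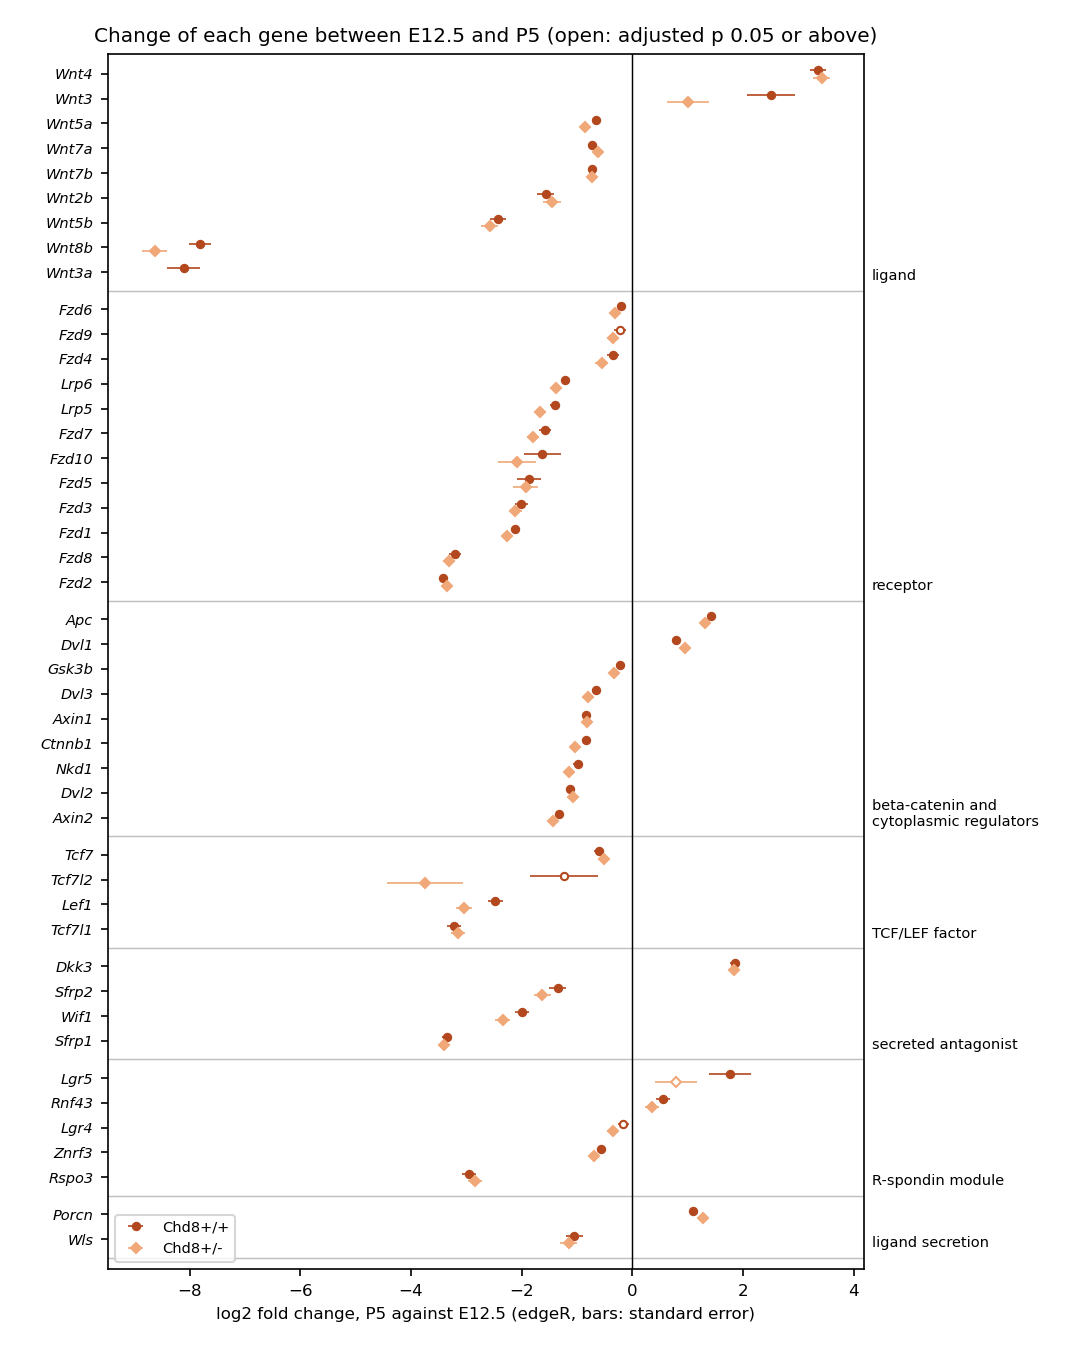
Log2 change from E12.5 to P5 (x axis) for each pathway gene, in Chd8+/+ and in Chd8+/- cortex (n = 3 libraries for each age and genotype), grouped by role. Open points are not called by edgeR. Most points lie left of 0 in both genotypes, and Wnt4, Wnt3, Dkk3, Lgr5, Apc, Porcn, Dvl1 and Rnf43 lie to the right in both. Wnt3a in Chd8+/- is not drawn because it had no count at P5.

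Among the ligands, 7 fell and 2 rose, and the composition of the group changed. Wnt7b, a ligand made by cortical neurons, was the highest per length at both ages, at 30.6 ± 1.42 CPM per kb at E12.5 and 18.5 ± 0.576 CPM per kb at P5 (mean ± SD, n = 3). The summed level of the 9 ligands was 75.9 ± 1.30 CPM per kb at E12.5 and 34.4 ± 0.740 CPM per kb at P5 in Chd8+/+. Wnt7b made up 37.4 to 42.0% of that sum at E12.5 and 51.9 to 54.7% at P5. Wnt8b, which marks the medial cortical wall at this age, was second at E12.5 with 26.3 to 30.8% and held 0.155 to 0.350% at P5. In the order at E12.5 the ranges of neighbours overlapped only between Wnt5b and Wnt5a, and at P5 only between Wnt2b and Wnt5b.

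Wnt3a, a ligand of the cortical hem, and Wnt8b showed the largest falls, and their order is not resolved. Wnt8b was at 80.5, 66.9 and 67.3 CPM at E12.5 and at 0.354, 0.184 and 0.397 CPM at P5 in Chd8+/+ (log2 change -7.81, SE 0.20, adjusted p = 4.65e-14). The levels of Wnt3a in Chd8+/+ were 9.02, 8.55 and 7.96 CPM at E12.5 and 0, 0.0459 and 0.0441 CPM at P5. Over the 3 libraries this was 1221 counts against 4. Relative to library totals, without TMM, the level was 315-fold lower with a 95% counting interval from 123 to 1158. The interval covers counting error only. In Chd8+/- the levels were 8.51, 6.62 and 7.18 CPM at E12.5, where the libraries held 979 counts, and 0 counts at P5. Relative to library totals this is at least 328-fold lower when the P5 group is set at a floor of 3 counts in all. The 9 markers of the cortical hem summed to 118 to 161 CPM at E12.5 and 55.8 to 64.8 CPM at P5.

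Wnt4 and Wnt3 moved the other way. Wnt4, a ligand studied mostly outside the canonical branch, was at 1.68, 1.79 and 1.71 CPM at E12.5 and at 19.0, 17.1 and 16.8 CPM at P5 in Chd8+/+. No library of one age overlapped those of the other, and the rise was 10.2-fold (log2 change 3.35, SE 0.14, adjusted p = 1.39e-11). Its share of the ligand sum per length was 0.517 to 0.572% at E12.5 and 11.6 to 13.1% at P5, when it followed Wnt7b and Wnt7a. Wnt3, a close relative of Wnt3a, was at 0.713, 0.690 and 0.732 CPM and then 4.45, 3.90 and 3.82 CPM (log2 change 2.51, SE 0.43, adjusted p = 7.6e-05). In Chd8+/- the log2 change of Wnt3 was 1.01 (SE 0.39) with all libraries, called by edgeR (adjusted p = 0.026) but not by DESeq2 (adjusted p = 0.0503) and with overlap between the ages, and was 2.07 (SE 0.16) without the library that stood apart, in which Wnt3 was at 3.89 CPM at E12.5. The edgeR call in Chd8+/- was lost without either of the other E12.5 libraries of that genotype (0.73 and 0.66) and without the first at P5 (0.97). Porcn, the enzyme that attaches the lipid to Wnt ligands, rose from 23.6, 22.3 and 18.8 to 43.5, 45.9 and 49.5 CPM (log2 change 1.102, adjusted p = 3.32e-09), whereas Wls, which carries them to the cell surface, fell from 63.9, 57.7 and 54.7 to 29.7, 29.7 and 25.6 CPM (log2 change -1.05, adjusted p = 1.6e-05).

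**Figure D2:**
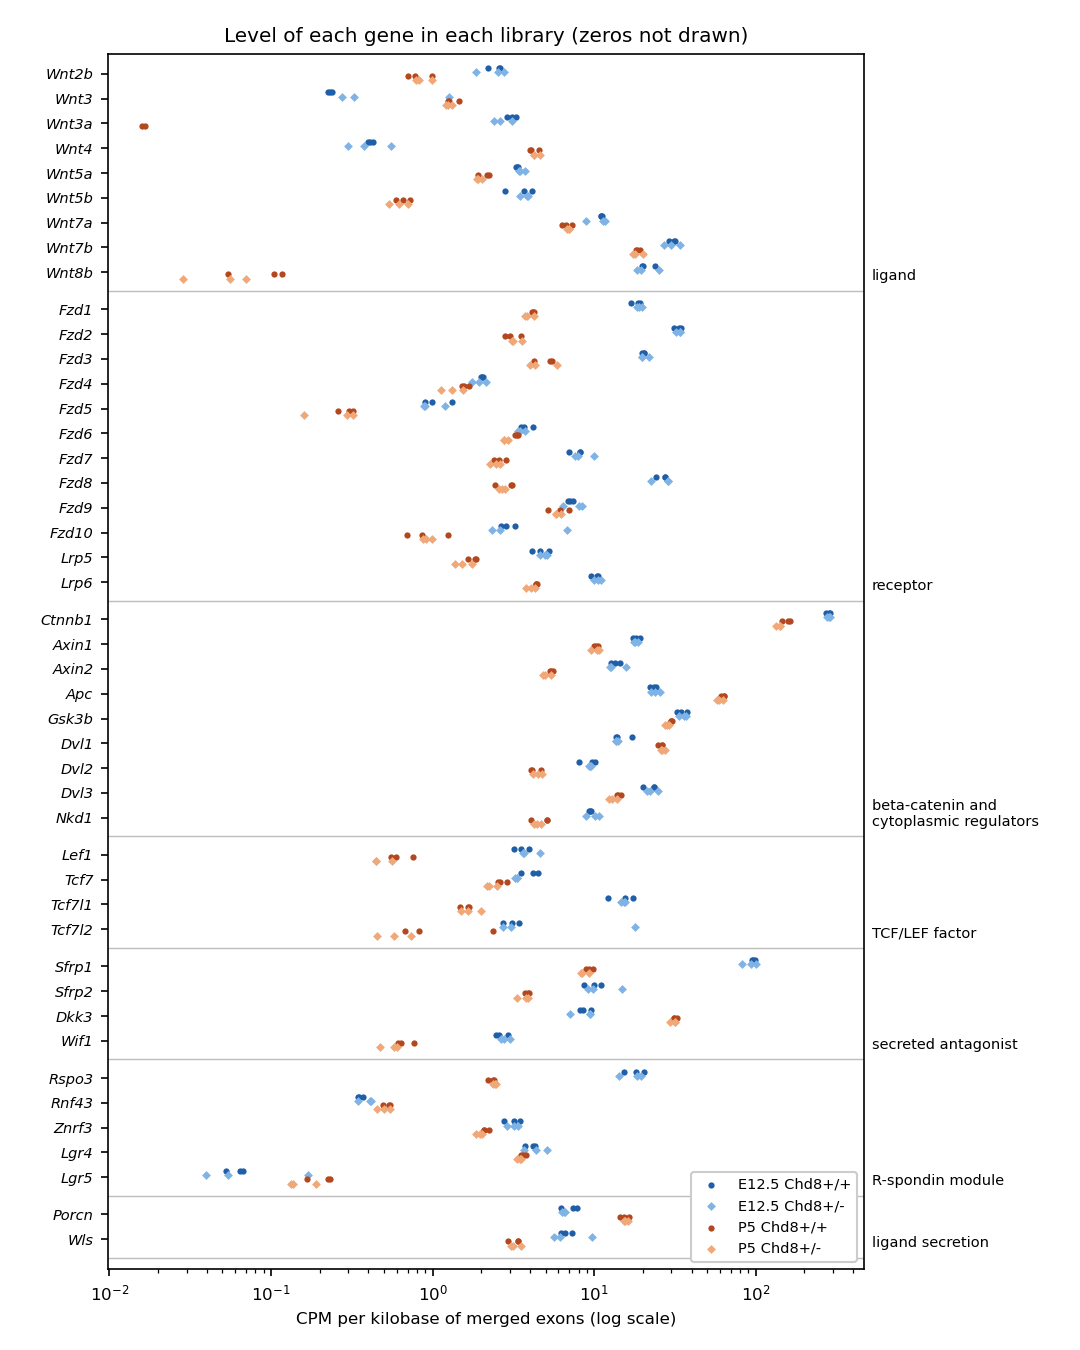
Level of each of the 45 pathway genes in CPM per kb of gene length (log axis), 1 point for each of the 12 libraries, coloured by age and genotype and grouped by role. Ctnnb1 is the highest gene at both ages, and for most receptors and TCF/LEF factors the P5 points lie below the E12.5 points.

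Of the receptors, 11 of 12 fell in Chd8+/+, with a median log2 change of -1.61, and none rose. The 10 Frizzled genes summed to 122 ± 5.74 CPM per kb at E12.5 and 30.0 ± 2.61 CPM per kb at P5. Fzd2, the highest Frizzled at E12.5, was at 123, 114 and 126 CPM and then at 10.99, 12.8 and 10.2 CPM (log2 change -3.41, SE 0.078, adjusted p = 1.34e-14), the largest fall of a receptor. Its share of the Frizzled sum was 26.7 to 27.3% at E12.5 and 9.76 to 10.9% at P5, and that of Fzd8 was 20.9 to 21.9% and 8.94 to 9.93%.

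Fzd9 was not called by either tool in Chd8+/+, and Fzd6 was called by edgeR (log2 change -0.20, adjusted p = 0.0165) but not by DESeq2 (adjusted p = 0.0734). Fzd9 was at 15.8, 16.2 and 16.8 CPM at E12.5 and at 14.01, 16.1 and 11.9 CPM at P5 (log2 change -0.22, SE 0.11, adjusted p = 0.0754), with overlapping libraries, and went from sixth to first in the order of mean levels per length. Its share of the sum was 5.49 to 6.10% at E12.5 and 19.2 to 21.9% at P5, although at P5 its range overlapped that of Fzd3. In Chd8+/- Fzd9 was called lower (-0.36, SE 0.11, adjusted p = 0.00733 in edgeR and 0.0142 in DESeq2) with no overlap between the ages, a call lost without the third Chd8+/- library at E12.5 (adjusted p = 0.0524). In Chd8+/+ it was called lower by edgeR with gene length offsets (-0.49), with library totals alone (-0.27), with no filter beyond 1 count (-0.22) and without the second Chd8+/+ library at P5 (-0.33). Fzd6 likewise took 2.92 to 3.32% and then 10.6 to 11.9%. Among Fzd6, Fzd2, Fzd8 and Fzd7 neighbouring ranges overlapped at P5, so the order of each with the next is not resolved, although in Chd8+/+ the range of Fzd6 lay above those of Fzd8 and Fzd7. The co-receptor Lrp6 was at 10.2 ± 0.532 CPM per kb at E12.5 and 4.40 ± 0.0318 at P5.

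**Figure D3:**
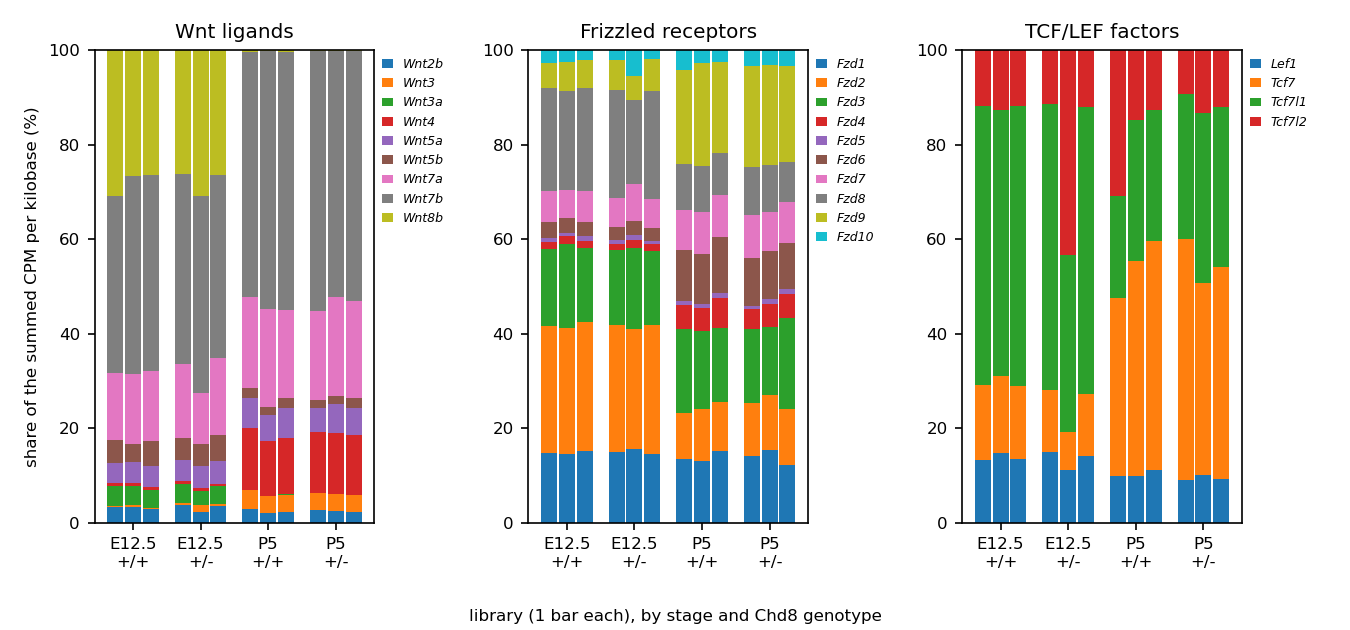
Share of the summed level per length (y axis, percent of CPM per kb) held by each Wnt ligand, Frizzled receptor and TCF/LEF factor, 1 stacked bar for each of the 12 libraries. In Chd8+/+, Wnt8b fills 26.3 to 30.8% of the ligand bars at E12.5 and 0.155 to 0.350% at P5, Fzd9 widens at P5, and Tcf7 replaces Tcf7l1 as the widest TCF/LEF band.

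Inside the cell, 7 of 9 genes fell and 2 rose. Ctnnb1 (ENSMUSG00000006932, chr9:120929216-120960507, GRCm38), which encodes beta-catenin, had the highest level per length of the 45 genes at both ages, 279.8 ± 8.04 CPM per kb at E12.5 and 156 ± 9.15 CPM per kb at P5. Its protein also joins cadherins at cell contacts, a role apart from Wnt signalling. In Chd8+/+ it was at 1381, 1459.9 and 1439 CPM at E12.5 and 807, 835 and 744 CPM at P5 (log2 change -0.84, SE 0.053, adjusted p = 1.24e-09). Apc, a scaffold of the destruction complex, rose from 349.7, 381 and 370.5 to 995, 999 and 965 CPM (log2 change 1.43, SE 0.059, adjusted p = 8.09e-12). Axin2, a scaffold of the same complex and a direct beta-catenin target in many tissues, had the largest fall of the group, from 79.5, 70.3 and 74.1 to 29.6, 29.2 and 30.6 CPM (log2 change -1.32, SE 0.080, adjusted p = 8e-10). The libraries of the ages did not overlap for any of these 3 genes.

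The TCF/LEF factors together fell from 25.7 ± 3.79 to 6.21 ± 1.28 CPM per kb. Tcf7l1, often a repressor of Wnt targets, held 56.4 to 59.4% of the sum at E12.5 and 21.6 to 29.9% at P5. It went from 60.8, 47.9 and 67.9 to 6.52, 6.55 and 5.80 CPM (log2 change -3.23, SE 0.12, adjusted p = 3.54e-12). Tcf7 fell by 0.60 on the log2 scale (SE 0.094, adjusted p = 3.59e-05), and held 15.4 to 16.3% and then 37.7 to 48.6% of the sum, the highest share in every Chd8+/+ library at P5. Tcf7l2 was not called by edgeR in Chd8+/+ with all libraries (log2 change -1.24, SE 0.62, adjusted p = 0.0785) and was called without the first P5 library (-2.03, SE 0.69, adjusted p = 0.0156). In Chd8+/- all 4 factors were called lower, Tcf7l2 by -3.74 (SE 0.68, adjusted p = 0.000144), or by -2.30 (SE 0.37) without the E12.5 library that stood apart. The shares of Tcf7l2 at P5 in Chd8+/+ were 30.8% in the first library and 12.6% and 14.7% in the others.

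The antagonist Sfrp1, a soluble Frizzled-like protein that binds Wnt ligands, was the second highest of the 45 genes per length at E12.5 (96.0 ± 2.25 CPM per kb) and fell to 9.36 ± 0.477 CPM per kb at P5. Its CPM values were 417, 411 and 431 and then 39.1, 40.5 and 43.2 (log2 change -3.36, SE 0.074, adjusted p = 9.21e-15). Dkk3, a divergent member of the Dickkopf family, rose from 28.4, 32.1 and 27.4 to 105, 105 and 109.7 CPM (log2 change 1.86, SE 0.090, adjusted p = 5.19e-11). At P5 Dkk3 was the highest antagonist, at 31.8 ± 0.762 CPM per kb.

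R-spondins amplify Wnt signals by binding LGR receptors and removing the ligases RNF43 and ZNRF3, which clear Frizzled from the membrane. Rspo3 fell from 48.9, 43.5 and 36.7 to 5.27, 5.72 and 5.65 CPM (log2 change -2.96, SE 0.13, adjusted p = 1.12e-11). Its partner receptor Lgr5 rose from 0.655, 0.690 and 0.544 to 2.31, 1.72 and 2.38 CPM in Chd8+/+ (log2 change 1.76, SE 0.38, adjusted p = 0.000639). In Chd8+/- Lgr5 was not called by edgeR with all libraries (0.79, SE 0.38, adjusted p = 0.0679), was called by DESeq2 (adjusted p = 0.0462), and was called by edgeR without the E12.5 library that stood apart (1.68, SE 0.26, adjusted p = 2.25e-05). Lgr4, the highest of the module per length at P5 (3.65 ± 0.143 CPM per kb), was not called in Chd8+/+ (log2 change -0.16, adjusted p = 0.132), but was with gene length offsets (-0.41). Rnf43 rose by 0.56 (SE 0.12, adjusted p = 0.00059) and Znrf3 fell by 0.56 (SE 0.082, adjusted p = 1.62e-05), both on the log2 scale.

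In the genotype comparison at E12.5, none of the 45 genes was called by edgeR, against 0.00553% of the 18081 genes tested. At an unadjusted p under 0.05, 1 gene was higher (Wnt3) and 1 lower (Tcf7) in Chd8+/-, against 2.31% and 2.84% of all genes. In edgeR without the second Chd8+/- library, Wnt3 no longer had such a p (0.149) and Tcf7 kept it (0.0136). Fzd9 was then higher at an unadjusted p of 0.0112 (log2 fold change 0.21, SE 0.071). Every Chd8+/- library lay above every Chd8+/+ library for 2 genes (Wnt3 and Wnt5a; 5.6% of all genes) and below for 1 (Tcf7; 5.76% of all genes). The median log2 fold change was 0.017 over the 45 genes and 0.00058 over all genes, with a median SE of 0.096 and a range from -0.31 (Tcf7) to 1.42 (Wnt3). DESeq2, the second tool, called none of the 42 genes for which it gave an adjusted p, against 0.0373% of all genes.

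**Figure D4:**
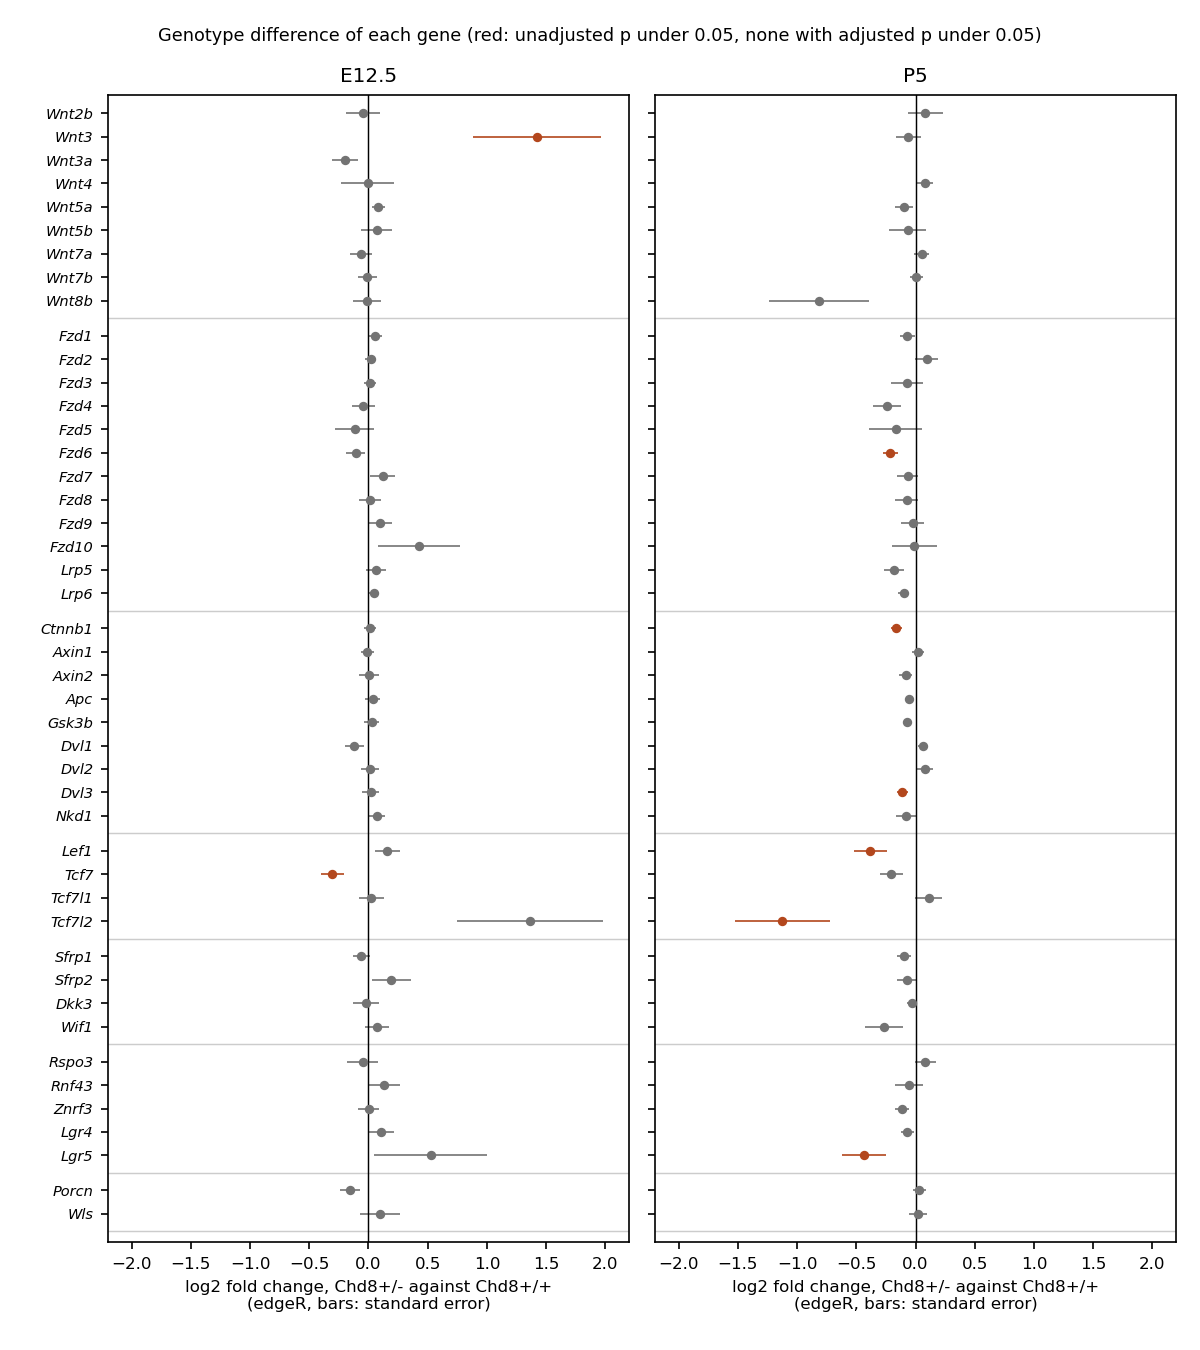
Log2 fold change of Chd8+/- against Chd8+/+ (x axis, bars are ± 1 SE, n = 3 libraries a genotype) for each pathway gene at E12.5 and at P5. Red points have an unadjusted p under 0.05. Wnt3 and Tcf7 are red at E12.5 and 6 genes, all left of 0, are red at P5. The widest bars at E12.5 belong to Tcf7l2, Wnt3, Lgr5 and Fzd10, each with 1 library apart from the others, and Wnt3a was not tested at P5.

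The largest fold changes at E12.5 came from the second Chd8+/- library. Wnt3 was at 0.713, 0.690 and 0.732 CPM in Chd8+/+ and at 0.997, 3.89 and 0.841 CPM in Chd8+/- (log2 fold change 1.42, SE 0.54, adjusted p = 0.942). All 3 Chd8+/- libraries were above all Chd8+/+ libraries, and the second was far above the rest. Without it the fold change was 0.36 (SE 0.23, adjusted p = 0.879). Tcf7l2 was at 27.0, 23.7 and 29.7 CPM against 24.0, 156 and 26.6 CPM, again with 1 high library and with the remaining libraries of both genotypes overlapping. Its fold change was 1.36 (SE 0.62, adjusted p = 0.942) with that library and -0.081 (SE 0.093, adjusted p = 0.931) without it. Lgr5 went from 0.53 (SE 0.48) to -0.36 (SE 0.29) and Fzd10 from 0.43 (SE 0.35) to -0.23 (SE 0.11) on leaving it out, so that 3 of these 4 genes changed sign. Tcf7l2 is also a gene of the developing thalamus, and the library was also the highest of the 6 for 6 of 9 cortical hem markers (Msx2 at 8.68 CPM against 3.74 to 5.51 CPM in Chd8+/+) and for 4 of 11 choroid plexus markers. Of these Otx2 was at 73.2 CPM against 46.8 to 52.0 CPM, while the defining gene Ttr, at 64.4 CPM, lay within the 28.4 to 69.1 CPM of Chd8+/+. The summed hem level of that library, 159.5 CPM, lay within the 124 to 161 CPM of Chd8+/+. Its summed choroid plexus level of 187 CPM lay above the 103 to 161 CPM of Chd8+/+. The part of the thalamic, meningeal, hem and choroid plexus markers of that library in these values was not tested.

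Tcf7 was lower in all 3 Chd8+/- libraries at E12.5. It was at 10.9, 9.29 and 11.7 CPM in Chd8+/+ and at 8.46, 8.68 and 8.74 CPM in Chd8+/- (log2 fold change -0.31, SE 0.096, adjusted p = 0.942). At P5 the libraries again did not overlap, at 7.60, 6.68 and 6.84 CPM against 6.57, 5.89 and 5.71 CPM (log2 fold change -0.20, SE 0.095, adjusted p = 0.297). Of the 45 genes it alone was lower in every Chd8+/- library at both ages. Of all genes, 5.76% were so at E12.5 and 14.8% at P5, and the share at both ages was not computed. Neither fold change passed the adjustment over all genes. At E12.5 the endothelial markers Kdr, Cdh5 and Tie1, 3 of 8 on the list, were also lower in every Chd8+/- library, and their part in the value of Tcf7 was not tested.

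At P5 the fold changes of the 45 genes were more often negative than positive in Chd8+/-, although none of the 45 passed edgeR's adjusted threshold (all genes, 0.00536%). Of the 44 genes tested, 32 had a negative and 12 a positive fold change, against 9254 and 9412 of all 18666 genes. The median was -0.070 against 0.0017 for all genes, with a median SE of 0.085. The values ran from -1.13 (Tcf7l2) to 0.11 (Tcf7l1). Wnt3a was not tested, with 4 counts in Chd8+/+ and 0 in Chd8+/-. At an unadjusted p under 0.05, 6 genes were lower and none higher, against 9.77% and 8.0% of all genes. The first Chd8+/- library was the lowest of the 6 P5 libraries for 16 of the 45 genes, and without it 3 genes had such a p. Every Chd8+/- library lay below every Chd8+/+ library for 8 genes (Fzd6, Lrp6, Ctnnb1, Gsk3b, Dvl3, Tcf7, Wif1 and Znrf3) and above for none, against 14.8% and 8.55% of all genes. DESeq2 called 1 of the 35 genes with an adjusted p lower (Ctnnb1) and none higher, against 3.55% and 1.68% of all genes.

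Beta-catenin itself was the gene that DESeq2 called. Ctnnb1 was at 807, 835 and 744 CPM in Chd8+/+ and at 675, 718 and 716 CPM in Chd8+/- at P5. Every Chd8+/- library was below every Chd8+/+ library, and the lowest Chd8+/+ library was close to the highest Chd8+/- ones. The log2 fold change was -0.16 (SE 0.046), with an adjusted p of 0.135 in edgeR and 0.0163 in DESeq2. The DESeq2 call was lost with gene length offsets (adjusted p = 0.0866), with the replicate number as a block (0.1001) and on leaving out any of 4 of the 6 libraries. At E12.5 Ctnnb1 was at 1381, 1459.9 and 1439 CPM against 1414, 1439 and 1459.9 CPM, with overlapping libraries (log2 fold change 0.011, SE 0.052, adjusted p = 0.995). About 5.16% of its exon length is shared with other genes (Ulk4 and Mir7090).

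Fzd6, a receptor known for tissue polarity, was at 13.7, 14.01 and 13.3 CPM in Chd8+/+ and at 11.5, 11.4 and 12.1 CPM in Chd8+/- at P5, with no overlap (log2 fold change -0.21, SE 0.064, adjusted p = 0.147). Dvl3, 1 of the 3 Dishevelled proteins, was at 67.8, 68.8 and 71.5 against 60.4, 67.4 and 62.7 CPM (log2 fold change -0.11, SE 0.045, adjusted p = 0.238). The gap between genotypes was narrow for Dvl3 and wider for Fzd6. For the receptors together, 11 of 12 fold changes were negative at P5, with a median of -0.073, and for the 9 cytoplasmic genes 6 were negative, with a median of -0.072.

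Among the 6 genes, Tcf7l2, Lgr5 and Lef1 had the larger fold changes, and those of Tcf7l2 and Lef1 turned on 1 library. Tcf7l2 was at 20.6, 7.19 and 5.91 CPM in Chd8+/+ and at 3.98, 6.39 and 5.06 CPM in Chd8+/-, with 1 high Chd8+/+ library and the others overlapping between genotypes. Its fold change was -1.13 (SE 0.40, adjusted p = 0.195) with that library and -0.33 (SE 0.18, adjusted p = 0.531) without it. Lef1 (ENSMUSG00000027985, chr3:131110471-131224356, GRCm38) was at 6.67, 4.85 and 5.23 CPM against 3.93, 4.91 and 3.92 CPM, with overlap between the groups. With the first Chd8+/+ library its fold change was -0.38 (SE 0.14, adjusted p = 0.207) and without it -0.23 (SE 0.14, adjusted p = 0.56). Lgr5 was at 2.31, 1.72 and 2.38 against 1.41, 1.95 and 1.36 CPM (log2 fold change -0.43, SE 0.19, adjusted p = 0.26). Wnt8b, at 0.354, 0.184 and 0.397 against 0.0958, 0.188 and 0.237 CPM, had a large fold change on few counts (log2 fold change -0.82, SE 0.42, adjusted p = 0.343).

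**Figure D5:**
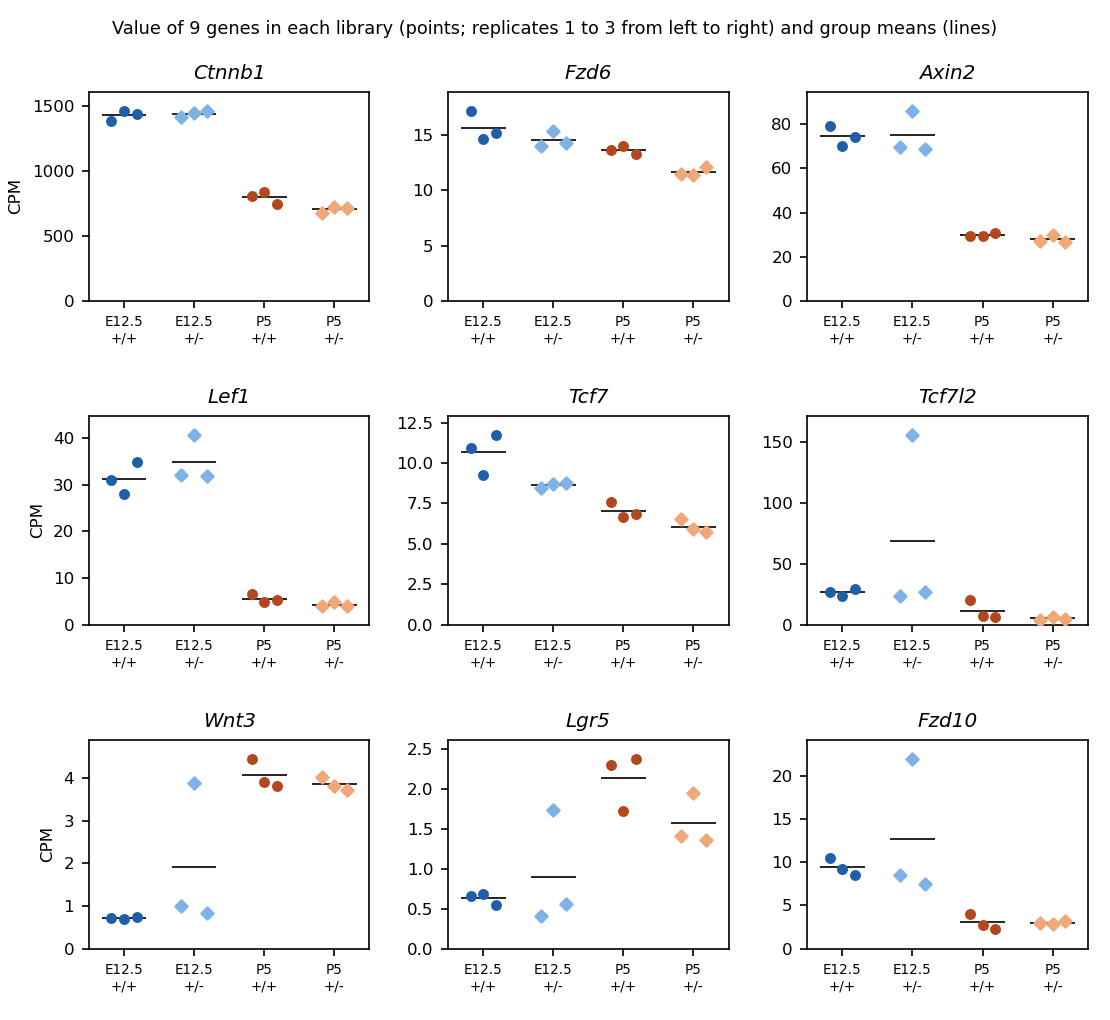
CPM (y axis) in each of the 12 libraries for 9 pathway genes, with the mean of each age and genotype as a line. The second Chd8+/- library at E12.5 is the highest for Tcf7l2, Wnt3, Lgr5 and Fzd10, the first Chd8+/+ library at P5 is the highest of its age for Tcf7l2 and Lef1, and the genotypes do not overlap at P5 for Ctnnb1, Fzd6 and Tcf7.

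Markers of several other tissues were at lower levels in Chd8+/- at P5. Of 11 choroid plexus genes, all 11 had a negative fold change, 10 had an unadjusted p under 0.05 and 10 were lower in every Chd8+/- library, and their summed level was 536 to 670.4 CPM in Chd8+/+ and 399 to 456 CPM in Chd8+/-. The defining gene Ttr was not at 0 in any P5 library, at 306 to 539 CPM. Endothelial genes were lower in every Chd8+/- library for 6 of 8, with sums of 288 to 328 against 250.1 to 286 CPM. Ganglionic eminence and striatal genes were lower in every Chd8+/- library for 6 of 9, with sums of 256 to 272 against 199 to 241 CPM. Of 6 hippocampal genes, 4 had a negative and 2 a positive fold change, and 3 were lower in every Chd8+/- library. Their sums were 391 to 402 against 349 to 383 CPM. Lef1 is also a gene of brain endothelium and Tcf7l2 of the thalamus, whose 6 markers summed to 212 to 223 against 199 to 209 CPM. The first Chd8+/+ library, on which the value of Tcf7l2 rests, was the highest of the 6 P5 libraries for 5 of those 6 markers (Gbx2 at 0.857 CPM against 0.0958 to 0.596 CPM in the others) and the lowest for Lhx2, and it was the highest for 5 of the 8 endothelial markers. The part of these tissues in the fold changes of the pathway genes was not tested.

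Whether the genotype effect differed between the ages was tested as an interaction over all 12 libraries. None of the 45 genes was called by edgeR, nor was any gene (0.0% of 19676). DESeq2 called none of the 26 for which it gave an adjusted p, against 1 higher and 7 lower of 8616 genes. At an unadjusted p under 0.05, 7 genes had a lower fold change at P5 than at E12.5 (Wnt3, Wnt3a, Wnt5a, Lrp6, Ctnnb1, Lef1 and Tcf7l2) and none a higher one, against 6.87% and 3.15% of all genes. This count depended on the second Chd8+/- library at E12.5. In edgeR without that library, Wnt3, Wnt5a, Lrp6 and Ctnnb1 were no longer under this threshold, and Wnt3a, Lef1 and Tcf7l2 still were. Wnt4 then passed it with a higher fold change at P5 (difference 0.36, SE 0.16). The value of Wnt3a rests on 4 against 0 counts at P5, where it was too low to be tested on its own, and nothing is read from it. For Ctnnb1 the difference was -0.19 (SE 0.075, adjusted p = 0.447) with all libraries and -0.18 (SE 0.090) without that library. For Tcf7l2 it was -2.51 (SE 0.91, adjusted p = 0.429) with all libraries and -1.06 (adjusted p = 0.519) without the second Chd8+/- library at E12.5. For Wnt3 the difference of -1.501 (SE 0.58, adjusted p = 0.443) became -0.43 (adjusted p = 0.559) without it.

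Genes that beta-catenin and TCF/LEF proteins induce serve as a readout of the pathway, and 4 of them among the 45 report feedback: Axin2, Nkd1, Rnf43 and Znrf3. Axin2 (ENSMUSG00000000142, chr11:108920349-108950783, GRCm38), whose start region held no TCF/LEF core, was at 79.5, 70.3 and 74.1 CPM in Chd8+/+ and 69.9, 86.1 and 69.0 CPM in Chd8+/- at E12.5 (log2 fold change 0.0074, SE 0.085, adjusted p = 0.997). At P5 it was at 29.6, 29.2 and 30.6 against 27.1, 29.6 and 26.7 CPM (log2 fold change -0.084, SE 0.055, adjusted p = 0.461). The genotypes overlapped for Axin2 at both ages. Without the second Chd8+/- library its edgeR fold change at E12.5 was -0.10 (SE 0.061, adjusted p = 0.879), and the remaining Chd8+/- libraries lay just below every Chd8+/+ library. Nkd1, which restrains Dishevelled, had a fold change of 0.073 (SE 0.071) at E12.5 and -0.079 (SE 0.088) at P5. For the ligase Rnf43 the values were 0.13 (SE 0.14) and -0.055 (SE 0.12), and for Znrf3 0.0015 (SE 0.090) and -0.11 (SE 0.062, adjusted p = 0.367). None of the 4 was called at either age. In a list of 15 target genes, which includes these 4 with Lef1, Tcf7 and Lgr5, 13 were tested at E12.5 with a median of 0.044. None was called by edgeR (all genes, 0.00553%), and DESeq2 called none of the 10 with an adjusted p (all genes, 0.0373%). In edgeR 1, Tcf7, was lower at an unadjusted p under 0.05, against 2.84% of all genes. At P5, 12 were tested and 11 had a negative fold change, with a median of -0.099, against 9254 negative of all 18666 genes. The edgeR test called none, with 4 lower and none higher at an unadjusted p under 0.05 (all genes, 9.77% and 8.0%). Of the 8 with an adjusted p, DESeq2 called 1 lower (all genes, 3.55%), Apcdd1, a cell-surface inhibitor of the pathway (log2 fold change -0.18, DESeq2 adjusted p = 0.0219). That call was lost in DESeq2 with the replicate block (adjusted p = 0.143), with a sex term (0.0551) and on leaving out any of 4 of the 6 libraries.

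A wider list of 61 other genes of the pathway was tested in the same way. At E12.5, 52 were tested and none was called by edgeR (all genes, 0.00553%). DESeq2 called none of the 44 with an adjusted p (all genes, 0.0373%). At an unadjusted p under 0.05, 2 were higher and 1 lower in Chd8+/-, against 2.31% and 2.84% of all genes. At P5, 54 were tested and none was called by edgeR, with 8 lower and 5 higher at an unadjusted p under 0.05 (all genes, 9.77% and 8.0%). DESeq2 called 7 of the 40 with an adjusted p lower in Chd8+/- and none higher, against 3.55% and 1.68% of all genes. These were Tnks (log2 fold change -0.27) and Tnks2 (-0.14), the tankyrases that mark Axin for destruction, Usp34 (-0.21), a deubiquitinase that stabilises Axin, Macf1 (-0.16), a cytoskeletal linker, the nuclear cofactors Pygo1 (-0.21) and Tle4 (-0.19), and Apcdd1. Of the 7 calls, 2 held in DESeq2 with gene length offsets, 1 with the replicate block, and 1 to 7 on leaving out single libraries. With gene length offsets the fold changes were also smaller for Usp34 (-0.12), Tnks2 (-0.076) and Macf1 (-0.061). In edgeR, Tnks, Pygo1, Tle4 and Apcdd1 were called without the second Chd8+/- library at P5. With no filter beyond 1 count, edgeR called Tnks, Usp34, Macf1, Pygo1, Tle4 and Apcdd1. No other edgeR setting called any of the 7, and shares of all genes under these settings are not given.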

How the data were processed

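Poly(A) RNA of mouse cortex was sequenced as stranded paired-end libraries, 12 in all. Per the labels and methods, the authors trimmed reads with Trim Galore 0.4.1, aligned them with TopHat2 2.1.0 to GRCm38.p4 and counted fragments per Ensembl gene with featureCounts 1.5.0. The deposited values are raw counts per gene, with gene lengths, in 2 columns a library that the headers give 2 run names. Strand was not used for the P5 counts, so reads of overlapping genes cannot be told apart there. The counting command for E12.5 is not given in the sources used here, so changes between the ages may include a difference in counting, most for genes that share exon length with another gene (19.7% for Dvl2, 17.8% for Fzd5, 16.1% for Sfrp2 and 13.8% for Lef1).

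Counts of the 2 runs of a library were summed, since runs differed little more than counting noise (chi-square per degree of freedom 1.18 to 1.51, against 6.58 to 45.4 between libraries). All genes passing filterByExpr were fitted with edgeR 4.0.16 (TMM, quasi-likelihood test, Benjamini-Hochberg) in R 4.3.3, genotype within each age over 6 libraries, age and the interaction over all 12. DESeq2 1.42.0 was the first alternative. The others were limma-voom (limma 3.58.1), size factors of DESeq2, library totals, no filter beyond 1 count, gene length offsets, the replicate number as a block, 1 model for all libraries, and leaving out each library. A sex term (Xist above 1000 counts), and DESeq2 combined with these choices, were added after seeing the data. The scripts were tested on simulated data.

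The 45 genes and all lists were chosen with earlier results of these data known. In each role the genes given in full were those that rose and fell most with age in Chd8+/+, those highest per length, those with an unadjusted p under 0.05 or a call between genotypes, the 3 largest fold changes at each age, and target genes of beta-catenin. Fzd8, Fzd10, the marker genes named and members given by share alone were added after their values were seen. Start regions came from RefSeq (GRCm38.p6).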

Additional observations from a re-analysis of the deposited data

How the results depend on the processing

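None of the 45 genes was called at E12.5 under any alternative run. At P5 the count of calls was 0 with edgeR, 1 with DESeq2 (Ctnnb1) and 2 with no filter beyond 1 count (Ctnnb1 and Tcf7l2). It was 0 in DESeq2 with gene length offsets and 0 with the replicate block, and 0 to 1 when single libraries were left out. For the interaction it was 1 with no filter beyond 1 count (Tcf7l2, adjusted p = 0.0439). The cause of these differences was not tested. Shares of all genes called under the alternatives in this section are not given, so these counts are not compared with all genes. The median fold change of the 45 genes ran from -0.011 to 0.063 at E12.5 and from -0.078 to -0.043 at P5 on leaving out single libraries, and was -0.049 at P5 with gene length offsets. Between the ages, 42 to 43 of the 45 genes were called in Chd8+/+ and 42 to 44 in Chd8+/- when single libraries were left out, and 0 of 810 values of single genes in each of these contrasts changed sign. The number of genes with an unadjusted p under 0.05 ran from 1 to 5 at E12.5, from 3 to 8 at P5 and from 3 to 11 for the interaction; it was 5 without the first Chd8+/- library at E12.5, 3 without the first Chd8+/- library at P5, and 11 without the third Chd8+/+ library at E12.5.

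The labels give genotypes the same replicate numbers. Correlations of deviations within a number were -0.16, -0.064 and -0.049 at E12.5 and 0.19, 0.078 and 0.038 at P5. Between different numbers they ran from -0.074 to 0.14 at E12.5 and from -0.14 to 0.072 at P5. By this measure the numbers did not pair the libraries at E12.5, and pairing at P5 is not excluded. With the number as a block, edgeR called 0 genes at each age and 0 for the interaction, and 42 and 45 genes between the ages in Chd8+/+ and Chd8+/-. The 3 libraries a group and the median SE of 0.085 to 0.096 limit which differences could be detected.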

Other observations

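Of the 61 other pathway genes, 58 were tested between the ages, some of them only because they were high at 1 age, so no count of rises and falls is given. Wnt2 was at 0 counts at E12.5 and 225 at P5 in Chd8+/+. Relative to library totals this is at least 72.7-fold higher when the E12.5 group is set at 3 counts in all. Lgr6, a receptor for R-spondins, was at 0.366, 0.345 and 0.314 CPM and then 5.16, 4.73 and 4.66 CPM (log2 change 3.82, SE 0.22), and Dact2, which acts on Dishevelled, at 2.70, 2.76 and 1.82 and then 22.6, 24.6 and 23.0 CPM (3.27, SE 0.11). Lgr6 and Dact2 both rose.

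Rspo1 and Ror2 fell. Rspo1, an R-spondin, was at 45.3, 36.8 and 33.9 CPM at E12.5 and 1.38, 1.38 and 1.94 CPM at P5 (log2 change -4.63, SE 0.15). Ror2, a receptor for Wnt5a, was at 38.3, 32.0 and 40.6 and then 4.15, 3.61 and 4.37 CPM (-3.19, SE 0.102). The libraries of the ages did not overlap for either gene.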
